A study of Mus musculus with 16 samples.

Results

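The proteasome subunit genes of the liver are described here across feeding state and Cpt1a genotype. They were taken by name: every protein-coding gene in the deposited tables whose symbol is Psma, Psmb, Psmc or Psmd followed by a number, without the inducible subunits Psmb8 and Psmb9. This gave 36 genes of 25803 in the tables: 8 of the alpha ring, 7 of the constitutive beta ring, Psmb10, 6 ATPases of the base, 11 non-ATPase regulatory subunits and 3 assembly chaperones that carry Psmd names. All 36 passed the filter on low counts. The rule used no measured value.

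The libraries came from whole livers of male mice on a high-fat diet for 12 weeks, all sequenced as poly-A selected RNA. Control mice and mice with a liver knockout of Cpt1a (LKO), the enzyme that admits long-chain fatty acids to mitochondrial oxidation, were compared after 16 h of fasting and after 16 h of fasting followed by 6 h of refeeding. Each of the 4 groups has 4 libraries, named by their columns in the deposited tables: S40-S43 for the fasted controls, S44-S47 for the fasted LKO livers, S48-S51 for the refed controls and S52-S55 for the refed LKO livers. The labels do not give the promoter of the Cre or other means of deletion, the genotype of the controls beyond "control", the age of the mice or the refeeding diet. They do not say that each library is a separate animal, so p-values measure the spread between these libraries.

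The proteasome is the cell's main protease for proteins tagged with ubiquitin. Its core particle is a barrel of alpha rings, which gate the entrance, and beta rings, which hold the catalytic sites. The regulatory particle caps the barrel: its ring of ATPases unfolds the substrate and threads it into the core, and its non-ATPase subunits bind ubiquitin, remove it and hold the particle together. When proteasome activity falls short, the transcription factor NFE2L1 is known to raise many subunit genes together. In hepatocytes the proteasome also degrades regulated enzymes of sterol synthesis and misfolded secretory proteins.

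The libraries held 14721601 to 24618230 counts, and the 36 genes took between 0.325% and 0.489% of them. The targeted gene, Cpt1a, stood at 20.7% of the control level in fasted LKO and at 11.9% in refed LKO (exact two-sided permutation test, p = 0.0286 in each state, the smallest that 4 against 4 allows). Library S44 of fasted LKO stood apart in markers of bile duct cells, with Krt19 at 29.0 CPM against 0.85 to 2.22 CPM elsewhere. Krt7 (4.59 CPM) and Epcam (7.89 CPM) were also highest in S44. Sox9 was not, at 4.39 CPM in S44 and 7.58 CPM in S47. S44 also stood apart in the smooth muscle genes Acta2 (45.5 CPM against 1.46 to 19.8) and Des (22.6 CPM against 3.12 to 13.7). Library S49 of refed control stood apart in markers of Kupffer cells, with Marco at 192 CPM against 4.14 to 34.6 CPM elsewhere. Cd5l (299 CPM), Adgre1 (48.5 CPM), Timd4 (21.0 CPM) and Vsig4 (39.7 CPM, with 37.7 CPM in S48) were also highest in S49. Clec4f was not, at 115 CPM in S49 and 170 CPM in S48. The 8 hepatocyte markers, which were present in every library, summed to 68082 to 76099 CPM in fasted control and to 57003 to 65238 CPM in fasted LKO. In bulk tissue, a change in the share of a cell type and a change in RNA per cell cannot be told apart. CPM are counts per 1000000 after TMM scaling of the library totals.

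Levels were compared between genes only per length, as the mean CPM per kilobase (kb) of the principal transcript over the 16 libraries. The highest levels belonged to core subunits. Psmb6, the caspase-like catalytic subunit, stood at 186 ± 22.6 CPM per kb, Psmb4, a structural beta subunit, at 183 ± 34.0, and Psmb5, the chymotrypsin-like catalytic subunit, at 143 ± 22.9 (SD, n = 16, all groups pooled). The order of Psmb6 and Psmb4 lies within their spread. With the longer gene lengths of the deposited tables, Psmb5 came first. In the regulatory particle, the order of the highest genes depended on the group and on the lengths used. Psmd4, the ubiquitin receptor, stood at 168 ± 29.1 CPM per kb in fasted LKO and at 96.6 ± 1.15 in refed control (SD, n = 4). Psmd8, a lid subunit, stood at 128 ± 11.6 and 97.1 ± 2.07 CPM per kb in the same groups. With the deposited lengths the ATPase Psmc1 was the highest of the particle, at 83.9 CPM per kb. At the other end stood the assembly chaperones Psmd10 (9.07 ± 0.93) and Psmd5 (7.80 ± 0.87) and, lowest of all, Psma8, the alpha subunit known from testis, at 0.70 ± 0.36 CPM per kb.

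In fasted livers 14 of the 20 Psmc and Psmd genes were called higher in LKO. Of the 15 core genes other than Psmb10, 2 were called higher, and Psmb10 was called lower. The log2 fold change was above 0 for all 20 Psmc and Psmd genes and for 14 of the 15 core genes. In edgeR (quasi-likelihood, Benjamini-Hochberg adjusted over 14488 genes; called where adjusted p was under 0.05), 16 of the 36 genes were called higher in LKO and 1, Psmb10, lower. Of all genes tested, 5.75% were called higher and 6.48% lower. The log2 fold change was above 0 for 34 of 36 members, with a median of 0.26, or 1.20-fold, against 0.02 for all genes. The 16 comprised 10 of the 11 non-ATPase subunits, 3 of 6 ATPases, 1 of 8 alpha subunits, 1 of 7 constitutive beta subunits and 1 of 3 assembly chaperones. For 12 members every LKO library lay above every control library, as for 8.30% of all genes, and for 1 every LKO library lay below, as for 8.57%. The summed level of all 36 was 3474 ± 124 CPM in fasted control and 4226 ± 417 CPM in fasted LKO (SD, n = 4). Library S47 held the lowest LKO sum, 3666 CPM, still above the highest control sum of 3546 CPM.

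**Figure D1:**
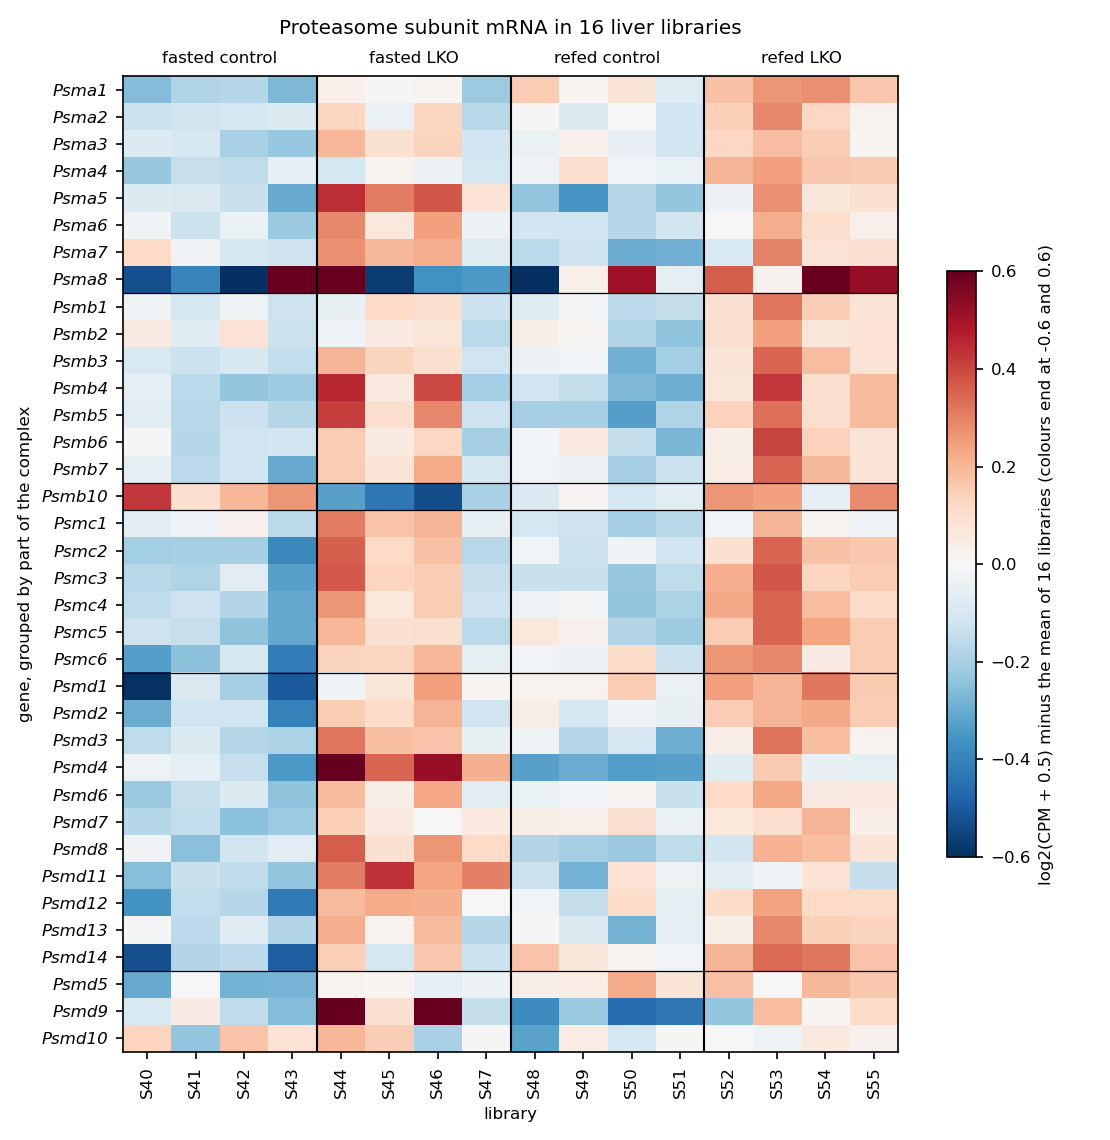
Each row is one of the 36 genes and each column one of the 16 libraries. Colour gives log2(CPM + 0.5) minus the gene's mean over the libraries, with colours ending at -0.6 and 0.6. Most rows are red in S44 to S46 and in S52 to S55, S47 is paler than the other fasted LKO libraries, and the row of Psmb10 runs the opposite way in the fasted groups.

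The number called depended on single libraries. Without S43, S44 or S46 it was 8 in each case (7 higher, 1 lower), without S40 it was 10 and without S42 it was 11. The median log2 fold change stayed between 0.23 (without S44) and 0.32 (without S47). Counts over all genes in the fits without 1 library are not given here. In a fit of the 2 fasted groups alone, 6 members were called: 5 higher and 1 lower. Of the 13839 genes tested in that fit, 549 were called higher and 700 lower. With no filter on low counts, Psmb5, Psmc3, Psmd3, Psmd6 and Psmd7 were not called (adjusted p from 0.0591 to 0.0800). Of the 25803 genes tested without the filter, 663 were called higher and 813 lower. The authors' deposited table lists 10 members higher and 1 lower in fasted LKO at an adjusted p-value under 0.05. Its share over all genes is not given here. Psma5, Psmc6, Psmd4, Psmd11, Psmd12 and Psmb10 were called under all 15 alternative settings of this comparison, and the fit of the fasted groups alone called none of the other members.

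**Figure D2:**
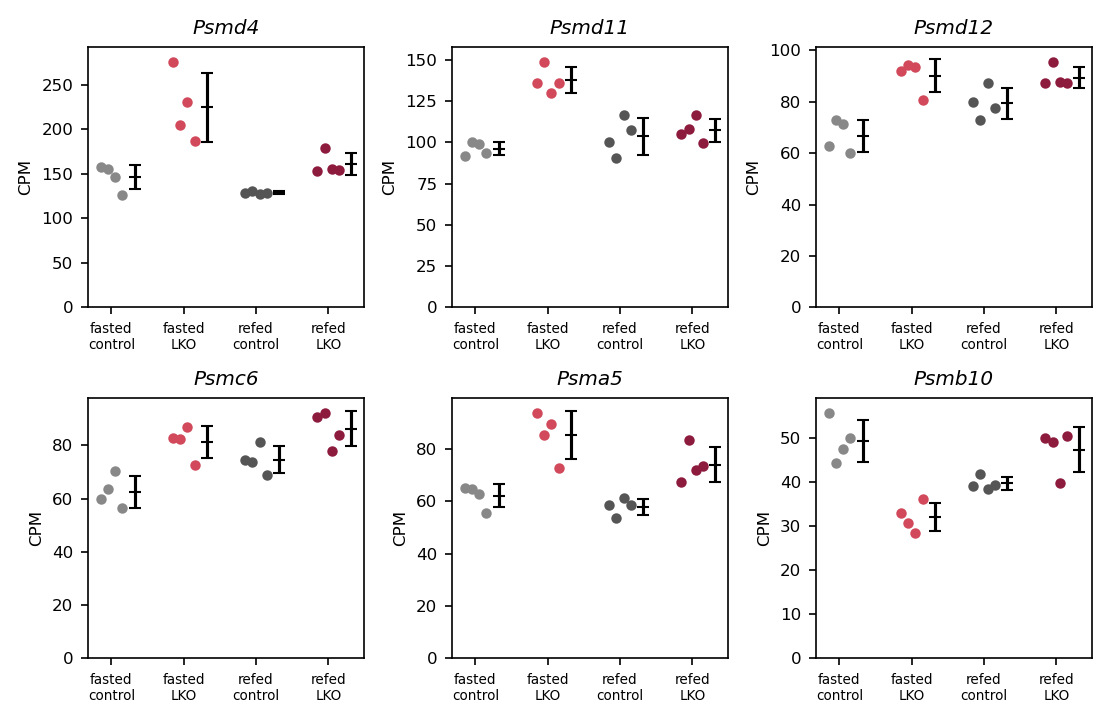
CPM of Psmd4, Psmd11, Psmd12, Psmc6, Psma5 and Psmb10 in the 4 groups, each on a linear axis from 0. Points are libraries in column order and the bar to the right of each group is the mean with its SD (n = 4). In the fasted state LKO lies above control for the first 5 genes without overlap and below it for Psmb10.

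Among the non-ATPase subunits, Psmd4, which receives ubiquitin chains (chromosome 3 from 94940005 to 94949925), showed the largest difference. Control libraries held 157, 155, 146 and 127 CPM, and LKO libraries 276, 205, 231 and 186 CPM. The groups did not overlap. Its log2 fold change was 0.62 (SE 0.11, adjusted p = 0.00183), and without S44, the highest library, it was 0.50 (adjusted p = 0.00536). Psmd11 (chromosome 11 from 80319441 to 80364074) is a lid subunit that helps to hold the regulatory particle on the core. It stood at 91.9, 100.3, 98.9 and 93.4 CPM in control and at 136, 149, 130 and 136 CPM in LKO. All 4 LKO libraries were high, S47 among them, and the log2 difference was 0.52 (SE 0.08, adjusted p = 0.00108). Psmd12, another lid subunit (chromosome 11 from 107370310 to 107395188), stood at 62.9, 72.7, 71.5 and 59.9 CPM in control and at 92.0, 94.2, 93.5 and 80.5 CPM in LKO. S47 was the lowest LKO library and still lay above all controls, and the log2 difference was 0.43 (SE 0.08, adjusted p = 0.00330).

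The other non-ATPase subunits differed by less and their calls were less stable. Psmd1, a large scaffold of the base, stood at 42.4, 60.4, 55.7 and 45.1 CPM in control and at 63.0, 67.5, 76.1 and 64.6 CPM in LKO. The groups did not overlap, and the log2 fold change of 0.41 (SE 0.10, adjusted p = 0.0144) was no longer called without S43 or S46 or in the fit of the fasted groups alone (adjusted p up to 0.0626). Psmd14, the deubiquitinase that cuts ubiquitin chains from the substrate, stood at 39.4, 50.5, 51.2 and 40.3 CPM in control and at 63.2, 53.3, 64.0 and 52.1 CPM in LKO. Its groups did not overlap either, with S42 just below S47. Its log2 fold change of 0.36 (SE 0.10, adjusted p = 0.0254) was lost without S40, S43, S44 or S46 (adjusted p up to 0.0850). Psmd7, the partner of Psmd14 in the lid, rose by 0.26 on the log2 scale (SE 0.06, adjusted p = 0.0134), from 80.9 ± 2.43 to 97.1 ± 4.07 CPM, and lost its call without S42 (adjusted p = 0.0550), in the fit of the fasted groups alone and with no filter on low counts (adjusted p = 0.0591, its highest). Psmd2 (log2 0.32), Psmd3 (0.31), Psmd6 (0.28) and Psmd8 (0.32) were called at adjusted p-values of 0.0205, 0.0349, 0.0266 and 0.0220, and each lost its call without S44 and without S46. Calls were also lost for Psmd2 without S40 or S43, for Psmd3 without any other library but S47, for Psmd6 without S40, S41 or S43 and for Psmd8 without S41 or S42. Their highest adjusted p over the alternatives was 0.0858 for Psmd2, 0.114 for Psmd3, 0.0881 for Psmd6 and 0.0756 for Psmd8. Psmd13 was the only non-ATPase subunit not called (log2 0.18, SE 0.09, adjusted p = 0.237). The gene overlaps Sirt3 on the opposite strand, and Sirt3 was lower in fasted LKO (log2 -0.31, adjusted p = 0.0173). The part of Sirt3 reads in this value was not tested.

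The ATPases all had positive log2 fold changes in fasted LKO, from 0.22 for Psmc1 to 0.38 for Psmc2, and 3 of 6 were called. Psmc6 (chromosome 14 from 45567245 to 45587162) stood at 59.9, 63.4, 70.5 and 56.5 CPM in control and at 82.7, 82.4, 86.7 and 72.7 CPM in LKO, a log2 fold change of 0.37 (SE 0.09, adjusted p = 0.0101). The groups did not overlap. Psmc2 stood at 101, 102, 101 and 88.9 CPM in control and at 149, 127, 132 and 104 CPM in LKO (adjusted p = 0.0178). It lost its call without S43 or S44 and in the fit of the fasted groups alone, where the adjusted p was 0.0675. Psmc3 (log2 0.32, adjusted p = 0.0379) overlapped between the groups at S47, with 133 CPM against a highest control of 140 CPM. It was called in 1 of the 8 fits that left out a library, the one without S47 (adjusted p up to 0.131, without S44). The Psmc3 gene overlaps Slc39a13 on the opposite strand, with a mean of 18.1 CPM against its own 148 CPM.

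In the core particle the log2 fold changes were also mostly above 0, but 2 of the 15 alpha and constitutive beta genes were called against 14 of the 20 Psmc and Psmd genes. Their medians were 0.19 and 0.32. Whether these shares differ was not tested. Psma5, an alpha ring subunit (chromosome 3 from 108164242 to 108187290), stood at 65.0, 64.7, 62.6 and 55.7 CPM in control and at 93.7, 85.2, 89.3 and 72.8 CPM in LKO. The groups did not overlap, and the log2 difference was 0.46 (SE 0.09, adjusted p = 0.00348). Psma5 has a pseudogene, Psma5-ps, which stood at 4.26 to 5.41 CPM in fasted control and at 7.12 to 8.74 CPM in fasted LKO. How reads were divided between the near-identical copies is not given in the sources used here. Psmb5, the chymotrypsin-like subunit, stood at 121, 113, 116 and 113 CPM in control and at 169, 136, 155 and 117 CPM in LKO. S47 lay inside the control range, and the log2 fold change of 0.32 (SE 0.10, adjusted p = 0.0421) was lost without any 1 of S40 to S44 or without S46 (adjusted p up to 0.146, without S44). Psmb2, a constitutive beta subunit, had the smallest difference of the core genes at log2 -0.00069 (SE 0.08, adjusted p = 0.998).

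The assembly chaperones, which hold ATPases before the base is complete, split. Psmd9 had the largest fold change of all 36, at log2 0.67 (SE 0.20, adjusted p = 0.0389). It stood at 55.8, 61.6, 53.6 and 49.5 CPM in control and at 103, 63.5, 131 and 53.9 CPM in LKO. The 2 libraries S44 and S46 were high, and S47 lay inside the control range. The call was lost without any 1 of S40 to S44 or without S46 (adjusted p up to 0.144, without S46), and under limma-voom. Psmd9 (chromosome 5 from 123307476 to 123388194) overlaps Hpd on the opposite strand. Hpd, an abundant liver enzyme of tyrosine breakdown, averaged 2338 CPM and was at log2 -0.58 in fasted LKO (adjusted p = 0.0539), the opposite direction. Whether the counting used strand is not given in the sources used here, so the Psmd9 values are uncertain. Psmd10 (log2 0.0026, adjusted p = 0.993) and Psmd5 (log2 0.20, adjusted p = 0.109) were not called.

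Psmb10 was the only member called lower in the fasted state. It is the inducible trypsin-like subunit that takes the place of Psmb7 in immunoproteasomes (chromosome 8 from 106662367 to 106665076). Fasted controls held 55.8, 44.4, 47.6 and 49.9 CPM, and fasted LKO livers 32.9, 30.7, 28.5 and 36.1 CPM. Every LKO library lay below every control library, and the log2 difference was -0.62 (SE 0.10, adjusted p = 7.96e-04). Psmb7, the constitutive subunit of the same position, was at log2 0.25 (SE 0.09) and was not called (adjusted p = 0.0796). The Psmb7 gene overlaps Nek6 on the opposite strand, with a mean of 65.3 CPM against its own 94.8 CPM. The part of Nek6 reads in this value was not tested. Of 12 interferon-stimulated genes, 1 was called higher in fasted LKO, Tap1, a peptide transporter of antigen presentation (log2 0.45, adjusted p = 0.0265), and 0 lower. Their log2 fold change was above 0 for 10 of 12, with a median of 0.21 (3 at an unadjusted p under 0.05). In refed LKO 2 were called higher and 0 lower (3 by DESeq2, 7 at an unadjusted p under 0.05). There 11 of 12 lay above 0, with a median of 0.41, and 0 were called in the interaction. Of the 9 leukocyte markers tested, 0 were called in fasted LKO by edgeR, DESeq2 or limma-voom, and 0 had an unadjusted p under 0.05. The 11 leukocyte markers summed to 69.8 to 100.5 CPM in fasted control and 70.1 to 108 CPM in fasted LKO, with none at 0.

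The promoters of the 6 genes whose fasted call held under every setting are shown because 5 of them were higher together and Psmb10 was lower. RefSeq promoters (GRCm38.p6, 250 bases before to 50 after the start) were matched for 29 of the 36 members. The gene positions given earlier are the deposited ones. The submitters' processing notes name the build mm39 but do not say that these positions are on it. The deposited positions cannot be set beside the promoter coordinates given here. Each line gives the 250 bases before the start on the gene's strand, 5′ to 3′. Capitals mark the core of the antioxidant response element, TGACNNNGC, and the ETS box, CCGGAAG, on either strand. Psma5 lies at chr3:108256676-108256925 (+), Psmb10 at chr8:105938393-105938642 (-), Psmc6 at chr14:45329574-45329823 (+), Psmd11 at chr11:80428365-80428614 (+), Psmd12 at chr11:107479278-107479527 (+) and Psmd4 at chr3:95042615-95042864 (-).
Psma5: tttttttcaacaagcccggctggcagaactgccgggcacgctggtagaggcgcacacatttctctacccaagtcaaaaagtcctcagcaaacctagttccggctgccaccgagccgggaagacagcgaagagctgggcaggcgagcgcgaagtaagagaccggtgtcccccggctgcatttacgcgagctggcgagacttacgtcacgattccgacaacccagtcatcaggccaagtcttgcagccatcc
Psmb10: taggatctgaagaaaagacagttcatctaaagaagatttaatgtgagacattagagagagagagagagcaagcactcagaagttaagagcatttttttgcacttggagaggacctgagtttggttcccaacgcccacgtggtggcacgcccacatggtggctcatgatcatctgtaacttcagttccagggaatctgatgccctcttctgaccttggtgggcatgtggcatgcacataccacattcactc
Psmc6: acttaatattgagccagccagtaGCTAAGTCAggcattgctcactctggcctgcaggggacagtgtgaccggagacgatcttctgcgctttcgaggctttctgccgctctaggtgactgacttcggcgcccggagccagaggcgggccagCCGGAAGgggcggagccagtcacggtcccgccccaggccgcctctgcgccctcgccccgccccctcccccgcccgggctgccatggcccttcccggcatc
Psmd11: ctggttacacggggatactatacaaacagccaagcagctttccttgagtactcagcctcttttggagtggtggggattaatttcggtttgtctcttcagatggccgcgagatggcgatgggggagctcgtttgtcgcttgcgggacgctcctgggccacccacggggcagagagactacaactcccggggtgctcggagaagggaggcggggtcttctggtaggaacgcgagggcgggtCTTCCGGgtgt
Psmd12: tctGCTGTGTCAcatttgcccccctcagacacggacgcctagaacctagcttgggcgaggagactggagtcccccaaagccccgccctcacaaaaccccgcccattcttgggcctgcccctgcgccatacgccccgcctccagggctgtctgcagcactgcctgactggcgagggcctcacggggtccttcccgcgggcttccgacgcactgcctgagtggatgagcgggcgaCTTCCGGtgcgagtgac
Psmd4: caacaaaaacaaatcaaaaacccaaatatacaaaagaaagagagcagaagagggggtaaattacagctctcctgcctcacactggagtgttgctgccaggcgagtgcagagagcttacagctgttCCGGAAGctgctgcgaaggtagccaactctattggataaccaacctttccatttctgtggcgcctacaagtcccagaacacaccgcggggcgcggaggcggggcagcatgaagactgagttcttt

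The antioxidant response core, a sequence that NFE2L1 and NFE2L2 are known to bind, occurred in 5 of the 29 members with a promoter (17.2%) and in 12.4% of all 32851 promoters of the same length. The 5 were Psmb5, Psmb6, Psmc6, Psmd12 and Psmd9. The ETS box occurred in 10 of 29 members (34.5%) against 8.86% of all promoters and 11.6% of coding ones. The 10 were Psma6, Psmc1, Psmc2, Psmc6, Psmd2, Psmd4, Psmd6, Psmd11, Psmd12 and Psmd13. Of the 29 members with a promoter, 13 were called higher in fasted LKO: 4 of the 5 with the antioxidant response core and 7 of the 10 with the ETS box. Whether these shares differ was not tested. Thus 4 of the 5 higher genes printed above carry the ETS box, and Psma5 and Psmb10 carry neither motif in the printed window. The NF-Y box, CCAAT, was in 11 members (37.9%) and 37.4% of all promoters. TGAGTCA was in 1 member (3.45%) and 5.20% of all promoters, and TGACGTCA in 0 members and 1.79% of all promoters. Both strands were searched for each motif. A member was counted once if any of its promoters held the motif, while the shares of all promoters count each promoter. The 29 members have 31 promoters, and 2 members have more than 1. TGAGTCA, read on the opposite strand, can lie inside TGACNNNGC; in Psmd9, which holds both, the matches start at -126 and -31 and do not overlap. A match describes letters in this window and not a binding site.

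In refed livers the log2 fold changes of LKO over control were above 0 for all 36 genes, but few single genes were called. They had a median of 0.26 (1.19-fold) against -0.01 for all genes. The test called 3 members higher and 0 lower, where 2.28% of all genes were called higher and 1.35% lower. At an unadjusted p under 0.05 there were 27 members, where 18.4% of all genes passed, and in the fasted comparison also 27, where 26.7% of all genes passed. DESeq2 called 12 members in the refed comparison and 6.38% of all genes. For 26 members every LKO library lay above every control library, as for 6.70% of all genes, and for 0 members the reverse held, as for 5.03%. The 36 genes together reached 3567 ± 105 CPM in control and 4265 ± 269 CPM in LKO (SD, n = 4), with a lowest LKO sum of 4067 CPM (S52) and a highest control sum of 3679 CPM (S48).

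**Figure D3:**
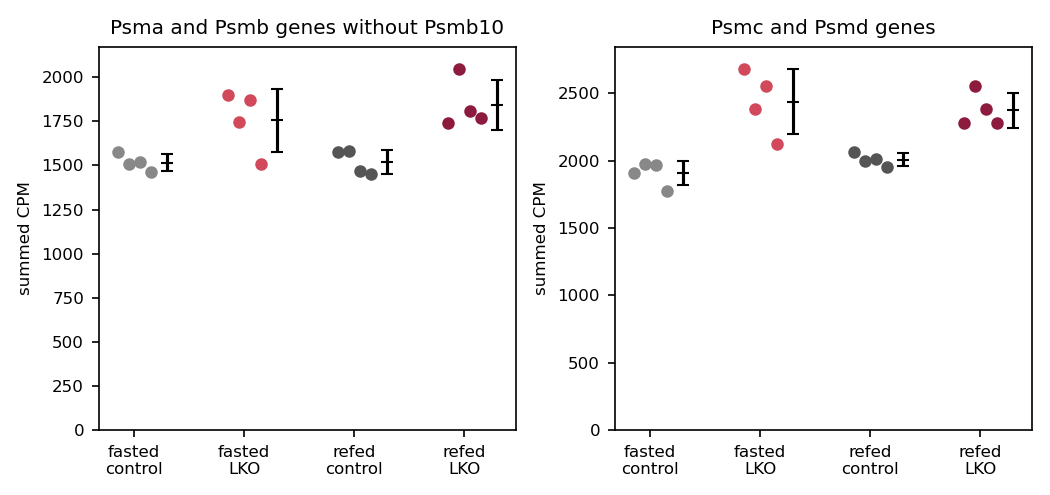
Summed CPM of the 15 Psma and Psmb genes without Psmb10 (left) and of the 20 Psmc and Psmd genes (right), on linear axes from 0. Points are libraries in column order and bars are the mean with its SD (n = 4). In both panels the refed LKO libraries lie above all refed control libraries, and in the left panel S47 of fasted LKO, at 1506 CPM, lies within the fasted control range.

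The 3 genes called in the refed state were Psmb5, Psmc3 and Psma5, and all 3 were also called in the fasted state. The fasted and refed comparisons share no libraries. Psmb5 stood at 111, 110, 101 and 112 CPM in refed control and at 140, 160, 137 and 145 CPM in refed LKO. Its groups did not overlap, and the log2 difference was 0.42 (SE 0.10, adjusted p = 0.0261). Psmc3, an ATPase, stood at 133, 133, 125 and 131 CPM in control and at 170, 190, 160 and 163 CPM in LKO, a log2 fold change of 0.38 (SE 0.10, adjusted p = 0.0381). Psma5 stood at 58.4, 53.6, 61.0 and 58.5 CPM in control and at 67.1, 83.3, 72.1 and 73.4 CPM in LKO, a log2 fold change of 0.35 (SE 0.09, adjusted p = 0.0381). S53 was the highest LKO library for each of the 3. The calls depended on single libraries: without S48, S50, S53 or S55 no member was called, and without S49, S51 or S54 it was 1. Without S53 the adjusted p was 0.0796 for Psmb5, 0.115 for Psmc3 and 0.120 for Psma5, with log2 fold changes of 0.37, 0.33 and 0.29. The authors' deposited table lists 10 members higher and 0 lower in refed LKO at an adjusted p-value under 0.05. Shares over all genes for that table and for the fits without 1 library are not given here.

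By part of the complex, the refed medians were 0.21 for the alpha ring, 0.27 for the constitutive beta ring, 0.28 for the ATPases, 0.20 for the non-ATPase subunits and 0.10 for the assembly chaperones, all on the log2 scale. Beside Psmb5, the highest values belonged to Psma8 (log2 0.56, SE 0.46, adjusted p = 0.569), which rests on very few counts, and to Psmb4 (log2 0.41, SE 0.12, adjusted p = 0.0798). The lowest belonged to Psmd5 (0.04), Psmd11 (0.05) and Psmd7 (0.07), with adjusted p-values of 0.849, 0.820 and 0.597. Psmd11 stood at 100.4, 90.2, 117 and 108 CPM in refed control and at 105, 108, 116 and 99.4 CPM in refed LKO, and the groups overlapped throughout. Over both states, 34 members had a log2 fold change above 0 in each, where 28.5% of all genes did. The exceptions were Psmb2 and Psmb10.

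**Figure D4:**
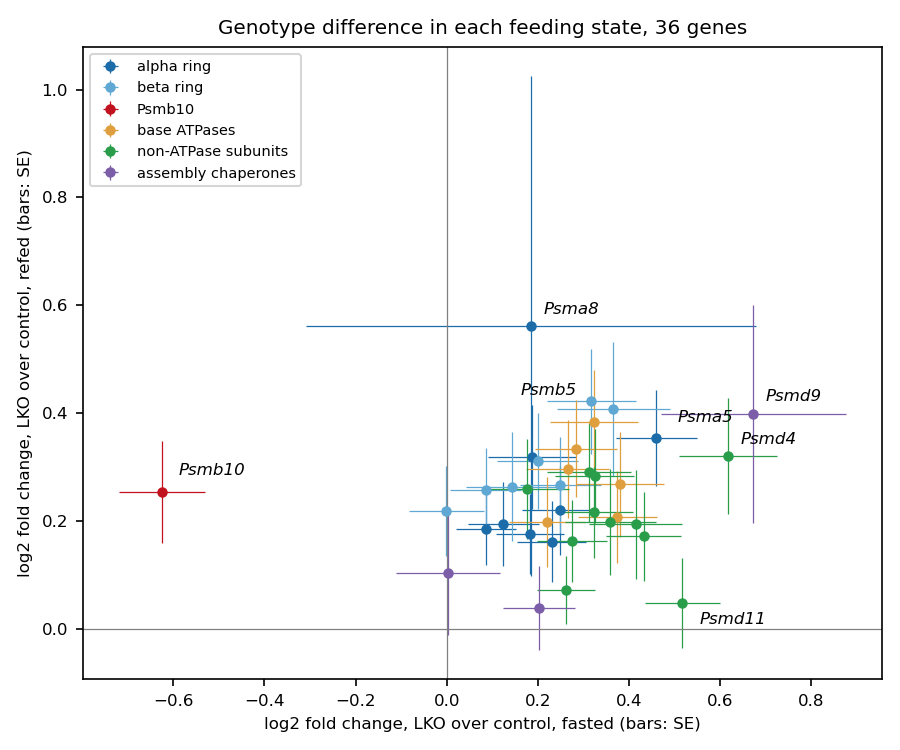
Log2 fold change of LKO over control in the fasted state (horizontal) and the refed state (vertical) for the 36 genes, coloured by part of the complex, with bars for the SE. All points lie above 0 on the vertical axis, Psmb10 alone lies far to the left at -0.62, and Psmd11 lies at 0.52 in the fasted and 0.05 in the refed state.

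Whether the LKO effect depended on feeding state was tested directly as an interaction. Of the 36 genes 1 was called, Psmb10, where 0.311% of all genes were called with a positive and 0.228% with a negative difference. Its refed minus fasted difference was log2 0.88 (SE 0.13, adjusted p = 0.0168). In the refed state Psmb10 stood at 39.0, 41.9, 38.5 and 39.4 CPM in control and at 49.9, 49.2, 39.7 and 50.5 CPM in LKO, a log2 fold change of 0.25 that was not called (adjusted p = 0.152). S54 was the low LKO library and lay inside the control range. The interaction was called under all 22 alternatives, the 16 that left out a library among them, with adjusted p-values from 4.2e-06 (DESeq2) to 0.0456 (without S48). The most negative differences were those of Psmd11 (-0.47, SE 0.12, adjusted p = 0.0705), Psmd4 (-0.30, adjusted p = 0.342) and Psmd9 (-0.27, adjusted p = 0.671). Psmd11 was called with DESeq2, with a filter at 5 CPM and without S49 (adjusted p = 0.0113, 0.0447 and 0.0336). After Psmb10 the highest were Psma8 (0.38, adjusted p = 0.821) and Psmb2 (0.22, adjusted p = 0.370). Among the parts, 7 of 7 constitutive beta genes had a positive and 10 of 11 non-ATPase genes a negative difference, where 48.5% of all genes were positive. The medians were 0.11 and -0.16, and the sign counts were not tested.

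With refeeding, 6 members were called in control livers and 5 in LKO livers. These counts lie near the shares over all genes, where 2238 and 2616 of the 14488 tested were called. In control livers 5 were called higher and 1 lower, where 7.79% of all genes were called higher and 7.65% lower, and the median log2 fold change was 0.04. Groups did not overlap for 9 members in the upward direction (10.4% of all genes) and for 3 in the downward direction (10.1%). The 5 were the deubiquitinase Psmd14 (log2 0.40, SE 0.10, adjusted p = 0.0139), the scaffold Psmd1 (0.37, SE 0.10, 0.0211), the chaperone Psmd5 (0.31, SE 0.08, 0.0145), the alpha subunit Psma1 (0.27, SE 0.07, 0.0241) and the lid subunit Psmd7 (0.23, SE 0.06, 0.0233). Psmd14 stood at 64.3, 59.9, 58.0 and 56.5 CPM in refed control, above all 4 fasted control libraries given above. Psma1 stood at 86.5, 91.5, 92.1 and 85.9 CPM in fasted and at 115, 105, 109 and 98.2 CPM in refed control. The gene called lower was Psmb10 (-0.32, SE 0.09, adjusted p = 0.0328), and Psmd9 (-0.26) and Psma7 (-0.19) were the next lowest and were not called (adjusted p = 0.418 and 0.205). Without S40 no member was called. Without S50 it was 1, without S43 it was 2, and without S48 it was 3. Shares over all genes in these fits are not given here. The Psmd5 gene overlaps Cutal on the opposite strand, with a mean of 38.6 CPM against its own 34.3 CPM.

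In LKO livers 3 members were called higher with refeeding and 2 lower, where 9.28% of all genes were called higher and 8.78% lower. The median log2 fold change of the members was 0.08. Psmb10 rose (log2 0.56, SE 0.09, adjusted p = 7.91e-04), with no overlap between 28.5 to 36.1 CPM in the fasted and 39.7 to 50.5 CPM in the refed libraries. The alpha subunits Psma1 (0.26, SE 0.07, adjusted p = 0.0235) and Psma4 (0.25, SE 0.07, 0.0153) also rose. Psma4 stood at 113, 123, 118 and 113 CPM in fasted LKO and at 140, 144, 136 and 135 CPM in refed LKO. Psma1 lost its call without S47, S53 or S54 (adjusted p up to 0.0697), in the fit of the LKO groups alone and with no filter on low counts, and Psma4 kept its call in all 15 alternatives. The 2 called lower were Psmd4 (-0.48, SE 0.11, adjusted p = 0.00522) and Psmd11 (-0.36, SE 0.08, adjusted p = 0.00668), and both kept their calls in all 15 alternatives. Psmd4 stood at 153, 179, 156 and 155 CPM in refed LKO, all below the lowest fasted LKO library at 186 CPM. Psma8 (log2 0.66, adjusted p = 0.364) and Psmd9 (-0.54, adjusted p = 0.0772) had large estimates that were not called. Groups did not overlap for 5 members upward (10.6% of all genes) and 2 downward (9.95%). The refeeding and genotype comparisons share libraries, so their fold changes are not independent.

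**Figure D5:**
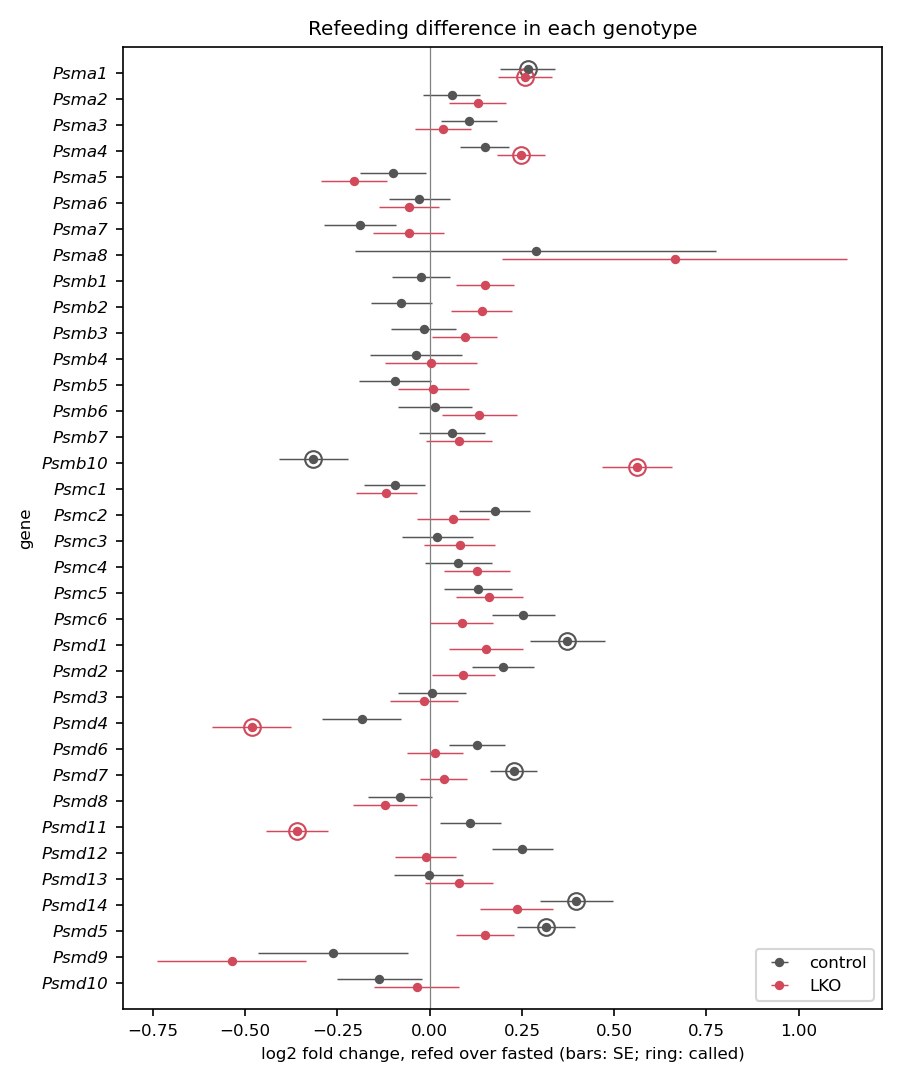
Log2 fold change of refed over fasted for the 36 genes in control (grey) and LKO (red), with bars for the SE and a ring around each called value. Psmb10 is ringed on the left in control and on the right in LKO, and Psmd4 and Psmd11 are ringed on the left in LKO only.

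Within groups most members varied together. In fasted LKO, 31, 32 and 30 of the 36 genes lay above their own 16-library mean in S44, S45 and S46, and 7 did in S47. In refed LKO the number was 28 in S52 and 33 or 34 in the other libraries. After each group's mean was removed, 28 of 36 members had a Pearson's r above 0.5 with the mean of the others over the 16 libraries, led by the ATPases Psmc2 (0.94) and Psmc1 (0.93). At the other end were Psmb10 (-0.35), Psmd5 (-0.10), Psma8 (-0.08), Psmd10 (-0.08) and Psmd11 (-0.07). These are descriptions over libraries that share scaling and depth, and no test was made. Neither measure is given here for other genes, so whether they are particular to the members cannot be said.

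The rest of the pathway was read from lists of companion genes. Of 12 ubiquitin enzymes and shuttle factors that bind the proteasome, 5 were called higher in fasted LKO and 0 lower: the deubiquitinase Usp14 (log2 0.47, adjusted p = 0.00190), the adaptor Ecpas (0.45, 0.00436), the shuttles Ubqln1 (0.40, 0.00872) and Rad23b (0.27, 0.0305), and the thioredoxin-like Txnl1 (0.37, 0.00963). In the refed state the ligase Ube3c was called lower (-0.27, adjusted p = 0.0479). Of 8 genes of the segregase p97 and its cofactors, 5 were called higher in fasted LKO, Vcp itself (0.31, adjusted p = 0.0489), Faf1, Ufd1, Nsfl1c and Nploc4, and 1 in refed LKO, Nsfl1c (0.36, adjusted p = 0.0248). Of 8 subunits of the cytosolic chaperonin TRiC, 3 were called higher in fasted LKO and 0 in refed LKO (2 at an unadjusted p under 0.05, and 0 called by DESeq2). The constitutive assembly chaperones of the core (5 genes tested), the subunits Adrm1 and Sem1, and the 6 activators and inhibitors had 0 calls in fasted LKO by edgeR, DESeq2 or limma-voom. At an unadjusted p under 0.05 there was 1 among the activators and inhibitors and 0 in the other lists. In refed LKO the activator Psme1 was called higher (0.35, adjusted p = 0.0211).

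Of the 6 genes of the NFE2L1 pathway, Vcp was called higher and Syvn1, an ubiquitin ligase of the endoplasmic reticulum, lower (log2 -0.78, adjusted p = 0.0108) in fasted LKO. Nfe2l1 itself was at 0.26 in fasted LKO (adjusted p = 0.131) and at -0.30 in refed LKO (adjusted p = 0.140). Its interaction was -0.55 (adjusted p = 0.0865). In LKO livers it fell by 0.87 on the log2 scale with refeeding (adjusted p = 7.99e-05). Control livers held 170, 198, 194 and 176 CPM of Nfe2l1 when fasted and 134, 128, 146 and 183 CPM when refed. In that comparison 0 genes of the list were called lower. Of 8 NFE2L2 targets, Srxn1 (0.89, adjusted p = 0.00678) and Txnrd1 (0.31, 0.0484) were called higher in fasted LKO, and 0 in refed LKO (1 at an unadjusted p under 0.05, and 0 called by DESeq2).

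Other cell types were read from marker lists. In fasted LKO 3 of 8 hepatocyte markers were called lower, Serpina1c (log2 -0.62), Ttr (-0.59) and Asgr1 (-0.32), with adjusted p-values of 0.0431, 0.0181 and 0.0258, and 0 of 6 Kupffer cell and 0 of 4 bile duct markers were called by edgeR or DESeq2 (0 and 1 at an unadjusted p under 0.05). The bile duct markers summed to 4.14 to 8.59 CPM in fasted control and to 6.05 to 45.9 CPM in fasted LKO, and none was at 0. The upper value is that of S44, without which the median log2 fold change of the members was 0.23. In the refed comparison the Kupffer cell markers summed to 174 to 716 CPM in control, the upper value being that of S49, and to 184 to 277 CPM in LKO. By edgeR or DESeq2 0 of the 6 were called (4 at an unadjusted p under 0.05). Of the 4 adipocyte markers only Cfd, the adipokine adipsin, passed the filter on low counts, and it was lower in fasted LKO (log2 -3.45, adjusted p = 0.0182). The list summed to 9.81 to 58.1 CPM in fasted control and to 0.45 to 9.63 CPM in fasted LKO, without overlap. In the refed state it summed to 2.34 to 33.1 CPM in control and to 0.52 to 3.46 CPM in LKO, with Cfd not called (adjusted p = 0.0687). Of 4 red blood cell markers 1 was called lower in fasted LKO, Alas2, an enzyme of heme synthesis (log2 -1.04, adjusted p = 4.99e-04). The list summed to 367 to 1231 CPM in fasted control and to 285 to 488 CPM in fasted LKO. Of 6 stellate cell and fibroblast markers 1 was called higher in fasted LKO, Dcn, a matrix proteoglycan (log2 0.36, adjusted p = 0.0413), and the list summed to 128 to 251 CPM in control and to 149 to 252 CPM in LKO. Of 5 endothelial markers 0 were called in fasted LKO by edgeR or DESeq2 (1 at an unadjusted p under 0.05), and in refed LKO Clec4g was called higher (0.44, adjusted p = 0.0388). The leukocyte marker Ly6c2 was also called higher in refed LKO (1.63, adjusted p = 0.0337). No marker was at 0 in all libraries. The part of these cells in the differences between groups was not tested.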

How the data were processed

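Liver RNA of 16 libraries in 4 groups was measured by poly-A RNA sequencing, with libraries built from random hexamers and dUTP per the labels' protocols. HISAT2 2.0.5 and the build mm39 are named in the submitters' processing notes. The counting tool, its use of strand and the annotation are not given in the sources used here. The authors deposited 4 tables with raw read counts per gene, whole numbers without normalization, with gene coordinates and lengths. The authors' log2 fold changes and p-values were also deposited, from a tool that is not named. Their deposited group means, a signal whose scaling is not stated, served only to check the sign of those fold changes. A further 64 columns of normalized values and FPKM per library were not used. A column's group follows from the group heading shared by the 2 tables that hold it, and the columns carry no replicate number.

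The tables were joined on gene identifier (25803 genes). A count differed between tables in 0 cases, and 3148 genes missing from a library's tables were set to 0 there, 0 of them members. Genes passing filterByExpr (14488) were fitted with edgeR 4.0.16 in R 4.3.3: TMM factors (0.941 to 1.07), glmQLFit with the 4 groups as one factor, and glmQLFTest with Benjamini-Hochberg adjustment over all genes tested. The biological coefficient of variation was 0.185. The SE is the log2 fold change divided by the square root of F. The pipeline was tested on simulated data. Replicates of a group differed by more than sampling noise (lowest chi-square per degree of freedom 15.4). Alternatives were DESeq2 1.42.0 (size factors and Wald test), upper quartile scaling, limma-voom (limma 3.58.1), no filter, a mean of at least 5 CPM, only the 2 groups compared, and leaving out each library. Principal transcript lengths came from GENCODE M21, and promoters from RefSeq.

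The members and gene lists were chosen with earlier results of these data known. By rule, full values go to members called in any of the 5 contrasts and to the 3 highest and 3 lowest in each. Companion genes may be named where called. Nfe2l1, Hpd, Sirt3, Cutal, Nek6, Slc39a13 and Psma5-ps were named after their values were seen. The same holds for the single bile duct, Kupffer cell, stellate cell and fibroblast markers given for S44 and S49. Some results on companion genes are not reported here.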

Additional observations from a re-analysis of the deposited data

Results flagged for a closer look

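Within groups of 4, single libraries lay far from the other 3 in 13 of 144 member groups checked (gap over range above Dixon's critical value, which chance gives in about 1 of 20). The member groups reuse the same libraries and most members vary together. The flags are therefore not independent, and the rate of 1 of 20 does not judge their number. Among the fasted control libraries, Psma8 was high in S43 at 1.92 CPM (others up to 0.70), Psmc2 low in S43 at 88.9 CPM (others from 101) and Psmd5 high in S41 at 34.0 CPM (others up to 28.0). Among the fasted LKO libraries, Psma1 and Psmd12 were low in S47, at 89.1 CPM (others from 104) and 80.5 CPM (others from 92.0), and Psma8 was high in S44 at 2.10 CPM (others up to 0.75). In refed control, S50 was low for Psma6 at 111.5 CPM (others from 115.8) and for Psmb5 at 100.9 CPM (others from 110.4). In refed LKO, S53 was high for Psmb2 at 83.8 CPM (others up to 75.7), Psmc1 at 186 CPM (others up to 163), Psmd4 at 179 CPM (others up to 156) and Psmd12 at 95.6 CPM (others up to 87.6), and S54 was low for Psmb10 at 39.7 CPM (others from 49.2).

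The effect of LKO differed between the feeding states for Psmb10, by a log2 difference of 0.88 (edgeR interaction term, adjusted p = 0.0168). It was lower in 4 of 4 fasted LKO libraries than in any fasted control library, and in refed LKO 3 of 4 libraries lay above all refed controls.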

How the results depend on the processing

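No paired analysis was possible because the columns carry no replicate number that matches the labels. Leaving out 1 library gave 8 to 25 members called in fasted LKO against control (17 with all), 0 to 3 in refed LKO against control (3), 0 to 7 in refed against fasted control (6), 4 to 6 in refed against fasted LKO (5) and 1 to 2 in the interaction (1). The matching counts over all genes are not given here. The fasted genotype count was 6 with only the 2 groups compared, the refed genotype count 5 at a mean of at least 5 CPM and 12 with DESeq2, the control refeeding count 3 without the low-count filter, and the interaction count 2 at 5 CPM and with DESeq2. Over all genes tested, the same fasted fit called 1249 of 13839, against 1772 of 14488 in the main fit. The refed genotype fits called 463 of 9344 and 924 of 14488, against 526. The control refeeding fit called 1682 of 25803, against 2238. The interaction fits called 197 of 9344 and 458 of 14488, against 78. The causes were not tested. Median log2 fold changes of the members ran from 0.23 to 0.32 (fasted) and 0.20 to 0.26 (refed) over all alternatives. No named member's call changed direction. Low counts limit Psma8, and unstated strand use limits members that overlap other genes: 12 are overlapped on the opposite strand.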
